A study of Mus musculus with 4 samples.

Results

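The genes described here are 37 genes of DNA replication, chosen by name and read in double-negative regulatory T cells (DNT), mouse T cells that have an αβ T cell receptor but lack both CD4 and CD8. All 37 were found among the 35275 genes of the deposited table, and 36 of them passed the filter for testing. The OX40-knockout group held 2 libraries (OX40-knockout 1 and 2) from DNT of OX40-knockout mice, and the wild-type group held 2 libraries (wild-type 1 and 2) from DNT of wild-type mice. Both groups were of the C57BL/6 strain. In both, naive CD4 T cells were converted to DNT, which were sorted by flow cytometry for TCRαβ and CD3 without CD4, CD8 or NK markers. OX40 is a costimulatory receptor of activated T cells, encoded by Tnfrsf4. The sources used here do not state age, sex, the deleted part of Tnfrsf4 or whether the 2 libraries of a genotype had separate donors. A p-value therefore covers just the spread among these 4 libraries, and that spread may be technical.

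Before S phase, the origin recognition complex, Cdc6 and Cdt1 load the MCM helicase onto DNA, a step called licensing. Cdc45 and the GINS complex then turn the loaded MCM ring into an active helicase, primase and the DNA polymerases copy the strands, and the sliding clamp PCNA holds the polymerases in place. T cells that have been activated divide fast, and many replication genes are switched on together by E2F transcription factors when a cell passes from G1 into S phase.

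RefSeq promoter windows (GRCm38.p6, from 250 bases before to 50 bases after the start site) were found for 31 of the 37 genes. The windows were searched on both strands for the E2F words TTTCCCGC, TTTCGCGC, TTTGCCGC and TTTGGCGC, which can overlap each other. At least 1 word was found for 12 of the 31 genes (38.7%), namely Cdc6, Cdt1, Orc1, Mcm3, Mcm5, Mcm6, Mcm7, Gins3, Pola1, Pold1, Rfc3 and Lig1. Of 8805 tested genes with a window 4.92% held one, and 2.60% of all 27025 genes with a window did. Of 44 other replication genes with a window, 15 (34.1%) held one. The word CCAAT stood in 61.3% of the 31 genes and 42.9% of tested genes, and the word TTTGAA, known as CHR in mitotic genes, in 12.9% and 14.5%. Of the 44 other replication genes, 50% held CCAAT and 25% TTTGAA, and of all genes with a window 41.1% and 20.2%. A match is a description of letters in a window, not of a bound site.

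The 5 genes with 2 or more E2F words in 1 window were 4 of the MCM helicase subunits and the clamp loader subunit Rfc3. Their windows are shown because these paired words are the densest among the members. Each is written 5′ to 3′ on the gene's own strand, with E2F words of either strand in capitals. The windows lie at chr1:20820263-20820562 (Mcm3, minus strand), chr8:75109259-75109558 (Mcm5, plus strand), chr1:128359656-128359955 (Mcm6, minus strand), chr5:138171834-138172133 (Mcm7, minus strand) and chr5:151651159-151651458 (Rfc3, minus strand).
Mcm3: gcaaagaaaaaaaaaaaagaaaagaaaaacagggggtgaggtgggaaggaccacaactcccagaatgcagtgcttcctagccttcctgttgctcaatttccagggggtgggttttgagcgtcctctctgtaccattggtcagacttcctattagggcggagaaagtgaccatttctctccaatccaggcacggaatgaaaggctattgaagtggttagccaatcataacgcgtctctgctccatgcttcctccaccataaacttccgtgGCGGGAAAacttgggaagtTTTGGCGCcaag
Mcm5: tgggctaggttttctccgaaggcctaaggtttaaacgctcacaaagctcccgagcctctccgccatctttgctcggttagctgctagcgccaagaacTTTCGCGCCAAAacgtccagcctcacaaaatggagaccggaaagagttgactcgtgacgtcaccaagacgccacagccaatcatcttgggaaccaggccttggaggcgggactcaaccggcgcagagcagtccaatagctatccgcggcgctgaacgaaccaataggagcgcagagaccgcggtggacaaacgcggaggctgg
Mcm6: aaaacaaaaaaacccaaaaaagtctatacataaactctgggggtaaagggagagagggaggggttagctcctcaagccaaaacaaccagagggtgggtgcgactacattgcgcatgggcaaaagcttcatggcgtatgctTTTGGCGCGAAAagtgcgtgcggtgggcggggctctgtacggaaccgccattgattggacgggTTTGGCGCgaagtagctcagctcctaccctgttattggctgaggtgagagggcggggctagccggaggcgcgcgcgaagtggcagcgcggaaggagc
Mcm7: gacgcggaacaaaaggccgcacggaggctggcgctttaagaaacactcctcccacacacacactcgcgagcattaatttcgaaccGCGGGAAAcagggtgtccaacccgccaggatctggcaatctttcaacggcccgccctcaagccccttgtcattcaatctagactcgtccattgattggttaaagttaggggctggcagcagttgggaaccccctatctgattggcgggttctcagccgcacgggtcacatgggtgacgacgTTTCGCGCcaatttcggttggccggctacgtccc
Rfc3: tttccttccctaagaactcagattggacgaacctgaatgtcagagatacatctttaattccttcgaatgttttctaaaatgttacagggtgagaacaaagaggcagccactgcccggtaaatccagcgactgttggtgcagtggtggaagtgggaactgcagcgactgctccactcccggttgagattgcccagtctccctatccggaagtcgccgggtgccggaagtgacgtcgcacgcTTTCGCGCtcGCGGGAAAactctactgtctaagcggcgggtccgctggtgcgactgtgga
In Mcm5 and Mcm6 words of opposite strands overlapped, so that they share 4 bases in 1 run of capitals. Mcm6 held 3 words and the other genes shown held 2 each. A second window of Mcm7, at another start site, held none.

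**Figure D1:**
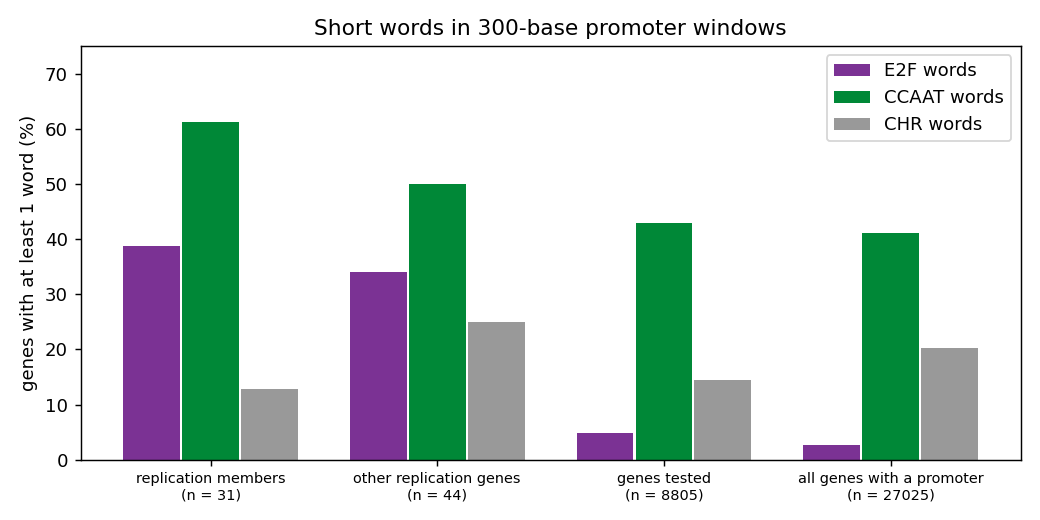
Share of genes, in percent on the vertical axis, with at least 1 E2F, CCAAT or CHR word in a promoter window, for the 31 replication genes, 44 other replication genes, 8805 tested genes and all 27025 genes with a window. E2F words stand in 38.7% of the replication genes and 4.92% of tested genes, and CHR words in 12.9% and 14.5%. The CHR bars of the 44 other replication genes and of all genes with a window are at 25% and 20.2%.

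Library totals were inferred from steps of 1 read in the values of genes with 1 annotated transcript. They lay between 22220888 and 24395743 reads. Tnfrsf4 itself was at 12.1 and 9.38 RPKM in OX40-knockout 1 and 2, against 18.2 and 12.3 RPKM in wild-type 1 and 2, and did not pass (log2 change -0.46, limma adjusted p = 0.975). Because the deleted part is unknown here, reads over the rest of Tnfrsf4 are little check of the labels. All 4 markers of the T cell receptor complex were at 40.1 RPKM or more in every library. Cd4 was at 10.1 and 2.06 RPKM in the knockout and 0.82 and 1.97 RPKM in wild-type, and Cd8a at 16.6 and 9.03 against 10.5 and 10.4 RPKM. Summed over 4 NK markers the level was 65.9 and 206 RPKM in OX40-knockout 1 and 2, against 133 and 212 RPKM in wild-type 1 and 2, led by Klrb1c, the gene of the NK1.1 antigen. Summed levels were at most 4.8 RPKM for 4 B cell markers (Ms4a1 at 0 throughout), 9.61 RPKM for 7 dendritic and myeloid markers and 5.07 RPKM for 3 erythroid markers, and Foxp3 was at 0.144 RPKM or less. In bulk RNA, fewer cells of a type and less RNA per cell cannot be told apart.

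The 36 tested replication genes were expressed in DNT of both groups, at mean levels from near the top of all tested genes to below their middle. RPKM, the unit of the table, counts reads per kilobase of transcript, scaled to library size. Pcna, the sliding clamp, was the highest member, at 349 and 426 RPKM in OX40-knockout 1 and 2 and 407 and 418 RPKM in wild-type 1 and 2. Its mean lay above 98.0% of tested genes. Rrm2, the small subunit of ribonucleotide reductase, which makes deoxynucleotides, stood at 183 and 194 RPKM in the knockout and 196 and 213 RPKM in the wild-type libraries. Gins3, a GINS subunit, was the lowest of the tested members in RPKM, at 5.43 and 6.23 RPKM in the knockout and 5.64 and 7.1 RPKM in the wild-type libraries. Its mean lay above 27.1% of tested genes. The other 33 tested members lay between Pcna and Gins3 in RPKM. Ranks between genes depend on the length behind each RPKM. Per kilobase of the longest principal transcript, a scale described below, Gins2 and Orc1 lay below Gins3 in each library but OX40-knockout 1. Summed over the 36 tested members, the level was 2201 and 2187 RPKM in OX40-knockout 1 and 2, against 2228 and 2318 RPKM in wild-type 1 and 2.

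Fen1, the flap endonuclease that trims Okazaki fragments, did not follow the rest. It was at 0.662 and 0.731 RPKM in the knockout and 0.461 and 0.457 RPKM in the wild-type libraries, from 33 and 37 reads against 24 and 25 reads, and was left out of the test by the filter of a mean of at least 1 RPKM. Lig1, the ligase that acts after Fen1 on the same fragments, was at 91.2 and 79.1 RPKM in the knockout and 83.8 and 85.2 RPKM in the wild-type libraries. An antisense gene, Gm10143, covers 78.8% of the exon bases of Fen1 and was itself at 0.53 RPKM or less. Tmem258, also on the opposite strand, covers 5.37% and was at 79.8 to 113 RPKM. The sources used here do not state whether strand was used in counting, and the part of these overlaps in the low value was not tested. Gse1 covers 67.3% of the exon bases of Gins2, and Ubxn6 a large share of those of Chaf1a, both on the opposite strand, so the values of Chaf1a and Gins2 are uncertain too. Smaller overlaps on the opposite strand touch further members. Among them, Eif4a2, at 331 to 378 RPKM, covers 12.7% of the exon bases of Rfc4, and Wsb2 covers 10.7% of those of Rfc5. Pcna has 2 annotated processed copies, both at 0.137 RPKM or less.

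**Figure D2:**
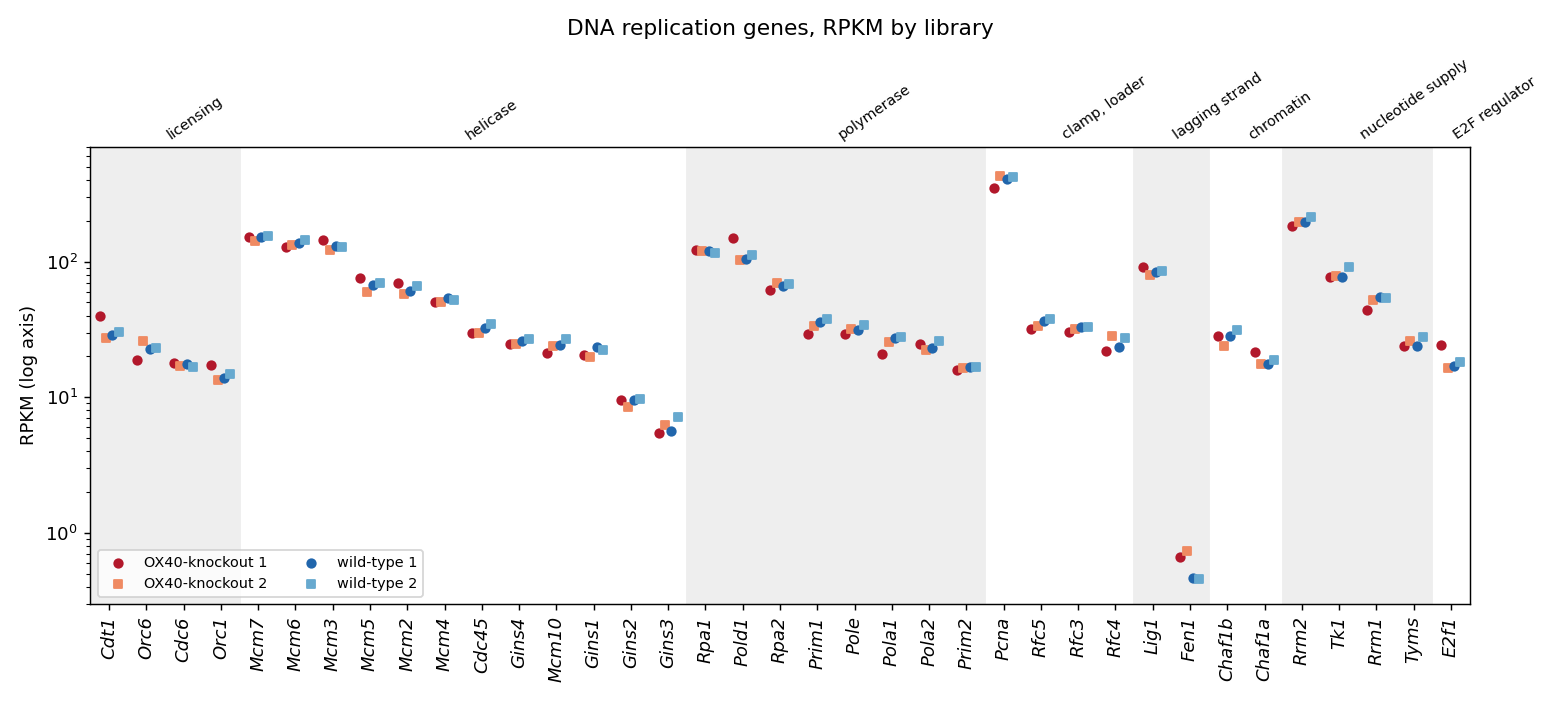
Log-axis plot of RPKM of the 37 replication genes by library, with genes grouped by role and ordered by mean level within a role. Pcna sits highest and Fen1, under 1 RPKM in all 4 libraries, lies apart from all other members.

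The 6 subunits of the MCM ring, which is built from 1 copy of each, did not stand at 1 level in the deposited values. In RPKM, Mcm7 was the highest in each library, at 152 and 141 in OX40-knockout 1 and 2 and 152 and 154 in wild-type 1 and 2. Mcm4 was the lowest, at 50.4 and 50.5 RPKM in the knockout and 53.8 and 51.8 RPKM in the wild-type libraries. Mcm3 and Mcm6 lay with Mcm7 at 122 RPKM or more, and Mcm2 and Mcm5 with Mcm4 at 76.0 RPKM or less. The ranges of Mcm2 and Mcm5 over the 4 libraries overlapped, as did those of each pair among Mcm3, Mcm6 and Mcm7. Within each library Mcm5 was nevertheless above Mcm2 and Mcm7 above Mcm3 and Mcm6, while Mcm3 was above Mcm6 in OX40-knockout 1 alone. The fold between highest and lowest was 3.01 and 2.79 in the knockout and 2.83 and 2.97 in the wild-type libraries.

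These ranks depended on the length behind each RPKM. Whole reads could be recovered for all 37 members, and they gave the length that had divided them. It was 3370, 3589 and 3422 bases for Mcm2, Mcm4 and Mcm5 but 1737, 2081 and 1068 bases for Mcm3, Mcm6 and Mcm7, and in 22 of the 37 members it matched the mean over all annotated transcripts within 0.1%. For 4 of these 22, Mcm7 among them, the smallest whole numbers were doubled to reach that match, since ratios leave a common factor open. Per kilobase of the longest principal transcript, a length chosen after seeing the data, Mcm7 lay beside Mcm4, at 54.7 and 50.8 reads per kilobase, scaled to library size, in the knockout and 54.9 and 55.5 in the wild-type libraries. On that scale Mcm6 was the highest, at 91.9 and 94.2 in the knockout and 98 and 102 in the wild-type libraries, and the fold between highest and lowest was 1.82 and 1.86 in the knockout and 1.82 and 1.98 in the wild-type libraries. Differences of 1 gene between libraries do not depend on the length.

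**Figure D3:**
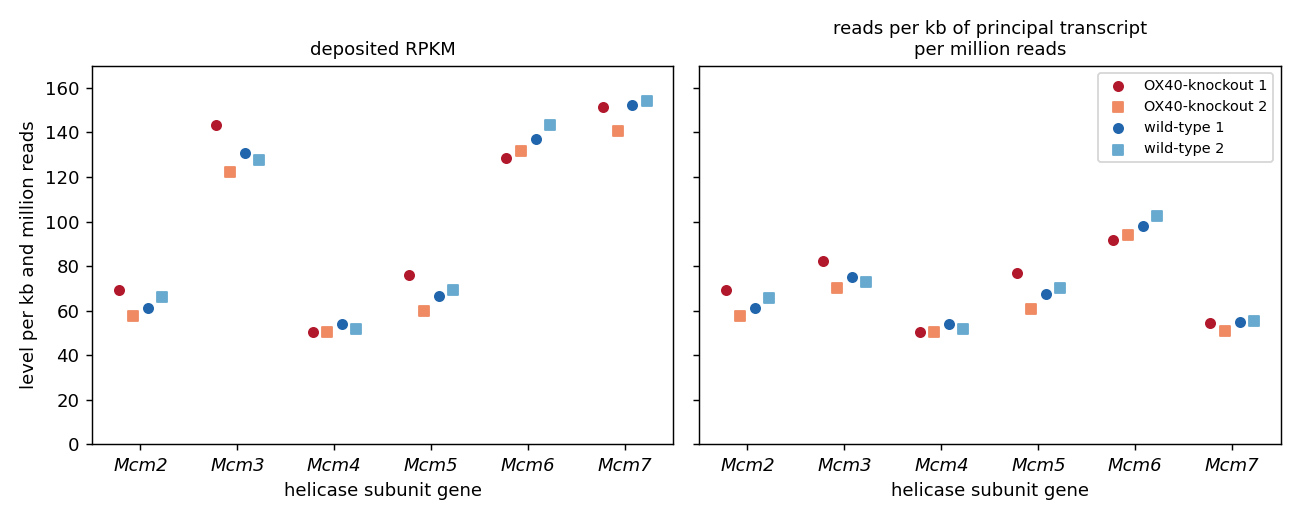
Levels of the 6 MCM ring genes in each library as deposited RPKM (left) and as reads per kilobase of the principal transcript, scaled to library size (right), on linear axes from 0. The gap between Mcm3, Mcm6 and Mcm7 and the other genes in the left panel is not present for Mcm7 or Mcm3 in the right panel. There Mcm3, at 69.9 to 82.2 over the 4 libraries, overlaps Mcm5, at 60.6 to 76.9.

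Most other partners that were compared kept the same order in all 4 libraries. The exception in RPKM was Pola1 against Pola2, subunits of DNA polymerase α, with a ratio of 0.839 and 1.16 in the knockout and 1.19 and 1.06 in the wild-type libraries. OX40-knockout 1 alone thus had less Pola1 than Pola2 in RPKM. Per kilobase of the principal transcripts Pola1 was below Pola2 in each library, so this exception depended on the length. On that scale Pola1 was at 9.92 and 12.3 against 24.6 and 22.1 for Pola2 in the knockout. In the wild-type libraries it was at 13.1 and 13.2 against 22.9 and 25.9. Rrm2 stood above Rrm1, the large subunit of ribonucleotide reductase, by 4.19 and 3.75 times in RPKM in the knockout and 3.58 and 3.93 times in the wild-type libraries, and per kilobase of the principal transcripts by 2.17 and 1.94 times in the knockout and 1.85 and 2.03 times in the wild-type libraries. Rrm2 was above Rrm2b, the small subunit known for use outside S phase, by 7.8 to 8.92 times in RPKM over the 4 libraries. Prim1, the catalytic primase subunit, stood above its partner Prim2 by 1.85 and 2.02 times in RPKM in the knockout and 2.16 and 2.29 times in the wild-type libraries. Per kilobase of the principal transcripts Prim1 was at 29.0 and 33.1 against 17.6 and 18.3 for Prim2 in the knockout. In the wild-type libraries it was at 35.5 and 37.6 against 18.4 and 18.4. Thymidine kinase Tk1, the form of dividing cells, was above the mitochondrial Tk2 by 4.49 and 6.05 times in the knockout and 5.39 and 7.28 times in the wild-type libraries. Cdt1 was below its inhibitor geminin (Gmnn) in each library, at 0.757 and 0.479 of the Gmnn level in the knockout and 0.472 and 0.501 in the wild-type libraries. The lengths behind the values of Rrm2b, Tk2 and Gmnn were not recovered, so the orders against these genes are given in RPKM alone.

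The comparison of OX40-knockout with wild-type addressed how the mRNA profile of DNT differs between the genotypes. No member passed the test, which was limma on log2(RPKM + 1) over 11625 genes. With limma, 0 of the 36 members had an adjusted p under 0.05, against 0% of all genes tested, and 0 of the 36 had an unadjusted p under 0.05, against 1.39% of all genes tested (162 genes). Adjusted p of the members lay between 0.975 and 0.993. The log2 changes were small, from -0.24 for Pola1 to 0.19 for Pold1. The relative Poisson SD of a member's reads in 1 library was 1.04% to 5.86%, with a median of 2.75%, over the members other than Fen1, and covers counting error only.

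Most members were nevertheless a little lower in the knockout, with no test attached. On average 27 of the 36 were lower, where 56.6% of all genes tested were, and the median log2 change was -0.07, against -0.03 over all genes. Both knockout libraries lay below both wild-type libraries for 15 members, where 17.8% of all genes did, and for 0 members above them, where 8.66% did. The 15 were Mcm4, Mcm6, Mcm7, Mcm10, Cdc45, Gins1, Gins2, Gins4, Pola1, Prim1, Prim2, Rfc3, Rfc5, Rrm1 and Rrm2. With median-of-ratios factors 10 of 36 lay below in this way (13.4% of all genes), with quantile normalization 10 (15% of all genes) and after a correction for GC content 10 (12.9% of all genes). Members above both wild-type libraries then numbered 0, 0 and 1, against 1366 and 1241 of 11625 genes and 1490 of 11575. With no filter on level, Fen1 was tested too and lay above, as did 2391 of 20996 genes. The number lower on average was 24 with median-of-ratios factors (51.6% of all genes), 28 with quantile normalization (53.8%) and 21 after the GC correction (49.5%). Leaving out a library moved it between 20 and 30 of 36. It was 30 without OX40-knockout 1 (58.9% of all genes), 24 without OX40-knockout 2 (54.2%), 28 without wild-type 1 (59.4%) and 20 without wild-type 2 (52%). Members lower in the knockout with no overlap then numbered 26 without OX40-knockout 1 (41.5% of all genes), 22 without OX40-knockout 2 (46.8%), 21 without wild-type 1 (35.3%) and 15 without wild-type 2 (26.3%). The 4 proliferation markers Mki67, Top2a, Ccnb1 and Cdk1 also lay lower in both knockout libraries, with summed levels of 482 and 536 RPKM in the knockout and 613 and 591 RPKM in wild-type, and their part in the result was not tested.

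The 4 licensing members showed no common direction. Cdt1, which loads the helicase, was at 39.7 and 27.4 RPKM in OX40-knockout 1 and 2, against 28.8 and 30.3 RPKM in wild-type 1 and 2. Orc1, the largest subunit of the origin recognition complex, was at 17.4 and 13.4 RPKM in the knockout and 13.8 and 14.7 RPKM in the wild-type libraries. In both genes OX40-knockout 1 was the highest of the 4 and OX40-knockout 2 the lowest. Orc6, the smallest subunit of that complex, showed the opposite, at 18.7 and 26 RPKM in the knockout and 22.6 and 23.2 RPKM in the wild-type libraries. Cdc6, the loading ATPase, was among the steadiest members, at 17.8 and 17.1 RPKM in the knockout and 17.5 and 16.8 RPKM in the wild-type libraries. With all 4 libraries the groups overlapped for each of these 4 genes. Their median log2 change was then 0.06, but -0.0405 without OX40-knockout 1 and 0.161 without OX40-knockout 2.

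Helicase genes lay lower on average in the knockout in 11 of 12 cases (56.6% of all genes), with a median log2 change of -0.09. None passed the limma test. With median-of-ratios factors the median was -0.0675, and Mcm2 and Mcm5 joined Mcm3 above 0. After the GC correction Mcm4 and Mcm3 were above 0, at 0.0675 and 0.0390. Gins1 was at 20.4 and 19.9 RPKM in the knockout and 23.4 and 22.4 RPKM in the wild-type libraries, from 304 and 301 reads against 363 and 366 reads. Its groups did not overlap (log2 change -0.17, SE 0.11, limma adjusted p = 0.975). Cdc45, which joins MCM and GINS in the active helicase, was at 29.9 and 29.9 RPKM in the knockout and 32.5 and 34.5 RPKM in the wild-type libraries (log2 change -0.16, SE 0.10). Mcm10, which helps to activate the helicase, was at 21 and 24 RPKM in the knockout and 24.1 and 26.9 RPKM in the wild-type libraries, where OX40-knockout 2 and wild-type 1 nearly met. Gins4 was at 24.6 and 24.8 RPKM against 25.8 and 26.7 RPKM, and Gins2 at 9.52 and 8.42 RPKM against 9.6 and 9.65 RPKM. In the MCM ring, Mcm6 was at 128 and 132 RPKM in the knockout and 137 and 143 RPKM in the wild-type libraries. Mcm2, Mcm3 and Mcm5 were each highest in OX40-knockout 1 and lowest in OX40-knockout 2, so that their groups overlapped. Mcm5 was at 76 and 59.8 RPKM in the knockout and 66.8 and 69.3 RPKM in the wild-type libraries. Within replicate number 2 all 12 helicase genes were lower in the knockout (62.1% of all genes), and within number 1 it was 9 of 12 (51.9% of all genes).

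Among the polymerase genes, the members with the most negative log2 changes were Pola1, the catalytic subunit of DNA polymerase α, and Prim1. Pola1 was at 20.7 and 25.7 RPKM in the knockout and 27.3 and 27.6 RPKM in the wild-type libraries, with OX40-knockout 1 alone far below (log2 change -0.24, SE 0.14, limma adjusted p = 0.975). Prim1 was at 29.3 and 33.5 RPKM in the knockout and 35.9 and 38 RPKM in the wild-type libraries (log2 change -0.23, SE 0.12). Their partners had log2 changes nearer 0, with Pola2 at 24.7 and 22.2 RPKM against 23 and 26 RPKM and Prim2 at 15.9 and 16.5 RPKM against 16.6 and 16.6 RPKM. Pold1, the catalytic subunit of polymerase δ, had the highest log2 change of the members, at 0.19 (SE 0.20), which came from OX40-knockout 1. It was at 149 and 102 RPKM in the knockout and 104 and 112 RPKM in the wild-type libraries. Pole, the catalytic subunit of polymerase ε, was at 29.3 and 31.7 RPKM in the knockout and 31.2 and 34.1 RPKM in the wild-type libraries. Of the single-stranded DNA binding subunits, Rpa1 was steady, at 122 and 119 RPKM against 120 and 116 RPKM. Rpa2, at 61.3 and 70.1 RPKM against 66.6 and 68.5 RPKM, was low in OX40-knockout 1.

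Clamp loader and nucleotide supply genes lay lower on average in all 8 cases (56.6% of all genes), counting Pcna, and none passed. Rfc5, a clamp loader subunit, was at 32 and 33.3 RPKM in the knockout and 36.8 and 37.9 RPKM in the wild-type libraries, with no overlap (log2 change -0.19, SE 0.10, limma adjusted p = 0.975). Rfc3 was at 30.2 and 32 RPKM against 32.7 and 33.1 RPKM, and Rfc4 at 22 and 28.2 RPKM against 23.3 and 27.4 RPKM, the lower value being that of replicate number 1 in each group. After the GC correction, among Pcna and the loader genes Rfc5 alone stayed below 0, at -0.18, with Pcna at 0.03, Rfc3 at 0.0057 and Rfc4 at 0.08. The median of these 4 genes was -0.09 as deposited, 0.0196 after that correction, 0.0030 without OX40-knockout 1 and -0.205 without OX40-knockout 2. Rrm1 was at 43.7 and 51.8 RPKM in the knockout and 54.6 and 54.2 RPKM in the wild-type libraries, with no overlap (log2 change -0.19, SE 0.12). Tk1 was at 76.5 and 78.2 RPKM in the knockout and 76.5 and 91.2 RPKM in the wild-type libraries, so wild-type 2 stood apart. Thymidylate synthase, Tyms, was at 23.8 and 26.2 RPKM in the knockout and 24 and 27.7 RPKM in the wild-type libraries. The median log2 change of the 4 nucleotide supply genes was -0.11. It was -0.0575 after the GC correction, -0.0696 without OX40-knockout 1, -0.179 without wild-type 1 and -0.0172 without wild-type 2.

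The chromatin assembly factor subunits, which place new nucleosomes behind the fork, differed between the knockout libraries. Chaf1b was at 28.4 and 23.7 RPKM in the knockout and 28.3 and 31.3 RPKM in wild-type, and Chaf1a at 21.4 and 17.6 RPKM against 17.7 and 18.7 RPKM. E2f1, the transcription factor of the G1/S switch, was at 24.1 and 16.5 RPKM in the knockout and 16.9 and 18.2 RPKM in the wild-type libraries. OX40-knockout 1 alone was high, and the log2 change of 0.18 (SE 0.20) did not pass (limma adjusted p = 0.975). The 12 members with an E2F word in a window had a median log2 change of -0.0023, with 6 lower, where 56.6% of all genes tested were. The 18 tested members with a window and no word had -0.08, with 15 lower. The difference between these sets of members was not tested.

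**Figure D4:**
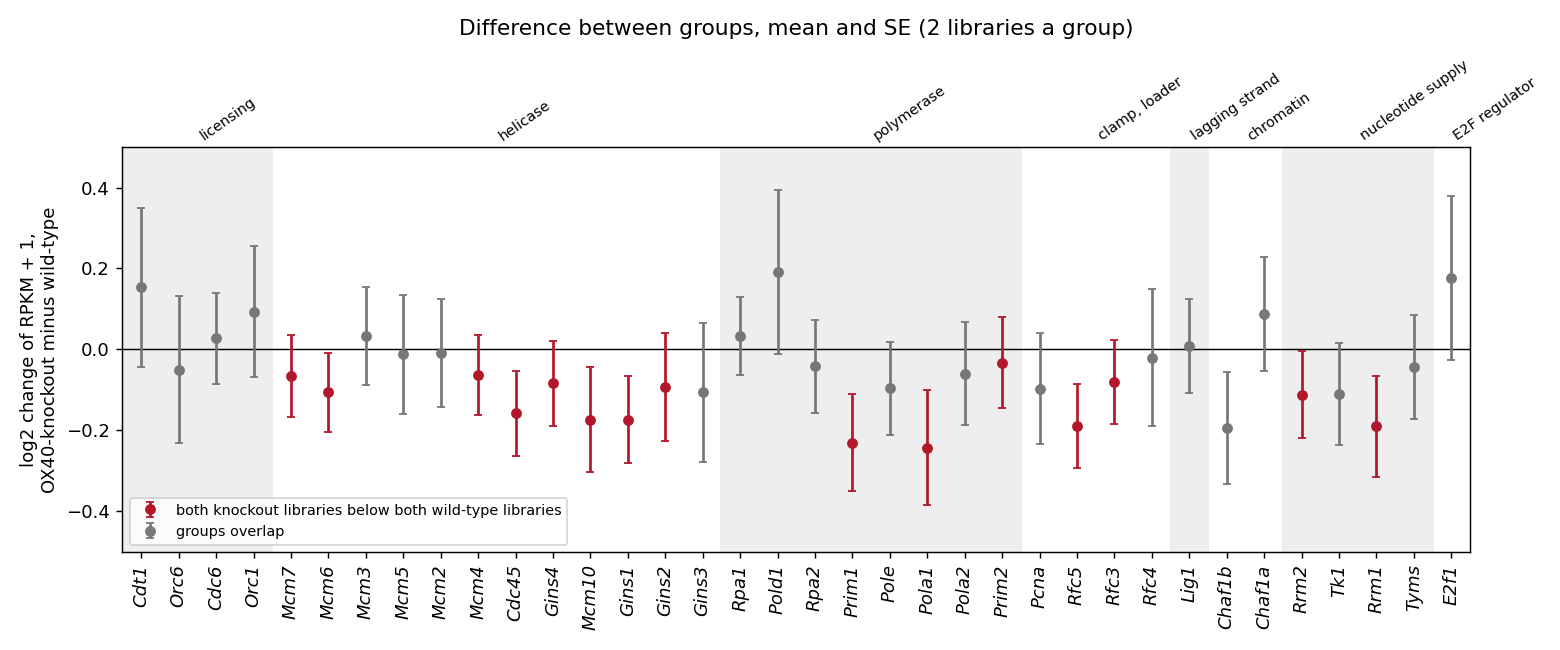
Log2 change of RPKM + 1, OX40-knockout minus wild-type, with limma's SE, for the 36 tested members by role (2 libraries a group). Red points are the 15 members whose knockout libraries both lie below both wild-type libraries, as 17.8% of all genes tested do. Of the 12 helicase genes 8 are red, and no member passed the limma threshold.

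The knockout libraries differed from each other more than the wild-type libraries did. The median absolute difference over the members was 0.18 on the log2(RPKM + 1) scale between OX40-knockout 1 and 2, against 0.06 between wild-type 1 and 2. Over all genes tested these were 0.25 and 0.10. OX40-knockout 1 was the highest or the lowest of the 4 libraries for 30 of the 36 members, where it was for 79.5% of all genes. It was the highest for 11 members (36.9% of all genes) and the lowest for 19 (42.7% of all genes). Wild-type 2 was the highest for 18 members (27.5% of all genes) and stood above wild-type 1 for 30 of the 36 (58.7% of all genes). OX40-knockout 2 stood above OX40-knockout 1 for 20 of the 36 (51% of all genes). Within replicate number 1 the knockout library was the lower for 22 members (51.9% of all genes), within number 2 for 30 (62.1%), and within both for 18 (30.2%).

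Which members were high and which low in OX40-knockout 1 went with the GC content of their transcripts. The 3 members furthest above their 4-library mean there were Pold1, E2f1 and Cdt1, with GC contents of 60.4%, 58.1% and 59% and deviations of 0.37, 0.35 and 0.33. Orc1 came next, at 0.22, with a GC content of 46.9%, against this order. Those furthest below were Pola1, Orc6 and Rrm1, with GC contents of 42.8%, 47.1% and 44.5% and deviations of -0.27, -0.25 and -0.22. Across the 36 members Pearson's r between deviation and GC content was 0.73 in OX40-knockout 1, -0.65 in OX40-knockout 2, -0.63 in wild-type 1 and -0.24 in wild-type 2, given as a description across genes that share libraries and whose deviations sum to 0. Over the 11575 tested genes with a GC content r was 0.43 in OX40-knockout 1. The difference between groups itself had an r of 0.55 with GC content over the members and 0.38 over all genes. After a GC correction the r of the group difference over the members was -0.12 and the median log2 change was -0.03. GC content is measured and its part in any single gene's difference was not tested.

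**Figure D5:**
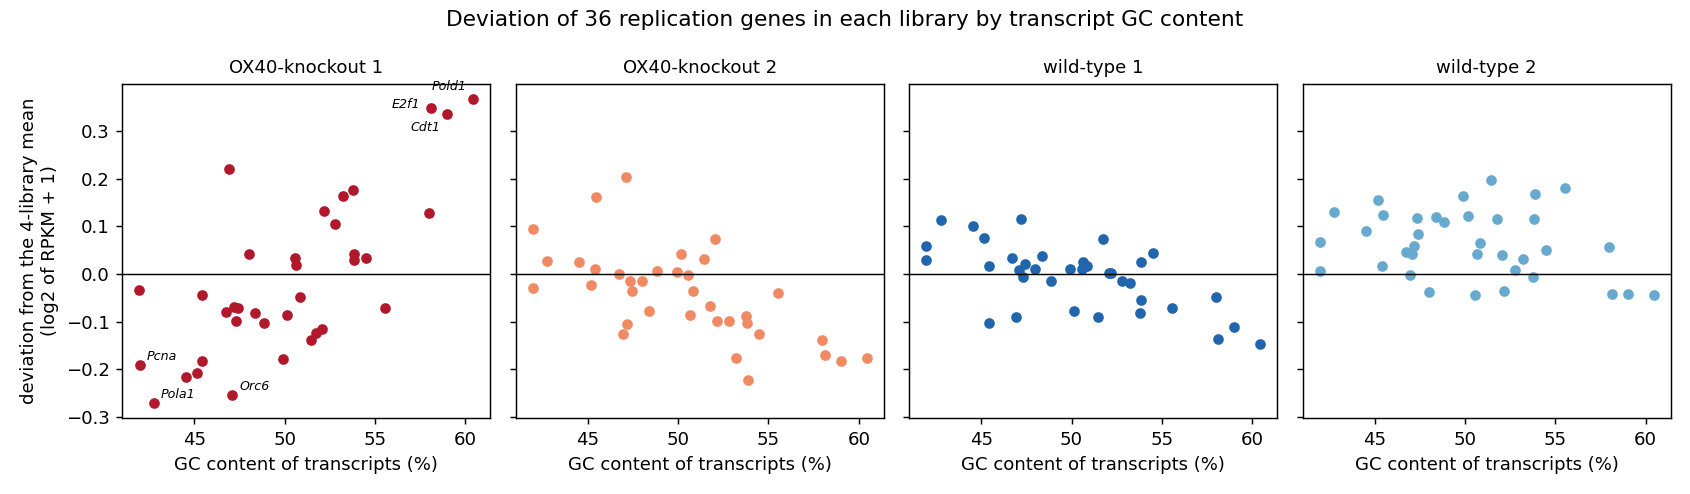
Deviation of each of the 36 tested members from its mean over the 4 libraries (vertical axis, log2 of RPKM + 1) by the mean GC content of its annotated transcripts (horizontal axis, percent), 1 panel per library. Points climb with GC content in OX40-knockout 1 (r = 0.73) and decline in OX40-knockout 2 (r = -0.65).

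A list of 55 further replication genes was read in the same way. It covered licensing, origin firing, polymerase accessory and clamp loader subunits, lagging strand maturation, fork protection, nucleosome assembly, nucleotide supply and the E2F and RB families. With limma 0 of the 55 passed (0% of all genes) and 0 had an unadjusted p under 0.05. On average 47 of the 55 were lower in the knockout (56.6% of all genes), with a median log2 change of -0.11. Those 47 took in all 6 licensing genes of the list, whose median log2 change was -0.12. Within replicate number 1 all 6 were lower in the knockout (51.9% of all genes), and within number 2 it was 4 (62.1% of all genes). For 18 of the 55 both knockout libraries lay below both wild-type libraries (17.8% of all genes), and for 0 above (8.66% of all genes). The most negative of these 18 were Asf1a, a histone chaperone, Atad5, which unloads PCNA, and Dna2, a nuclease and helicase. Asf1a was at 7.37 and 8.98 RPKM in the knockout and 9.27 and 10.4 RPKM in wild-type, and Atad5 at 8.2 and 8.91 RPKM against 10.3 and 10.1 RPKM. Dna2 was at 6.94 and 7.55 RPKM in the knockout and 7.87 and 9.37 RPKM in the wild-type libraries. E2f2, a close relative of E2f1, shared the pattern of E2f1, at 24.8 and 16.1 RPKM in the knockout and 16.4 and 17.7 RPKM in the wild-type libraries. The GC content of its transcripts is 56.3%, and the gene was picked after its values were seen.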

How the data were processed

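The authors deposited 1 table of RPKM values with 1 column per library, made with Bowtie 0.12.2 and genome build mm8, per the submitters' processing notes. The header names no unit. It was read as RPKM because, in genes with 1 annotated transcript, value times length rose in steps of 1 read. The sources used here do not state the counting tool, its annotation, strand use or the treatment of multimapping reads. Symbols, lengths, GC content and overlaps came from GENCODE vM21 (GRCm38), which may not be the authors' annotation. The members and gene lists were chosen with earlier results of these data known.

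The test was limma 3.58.1 (R 4.3.3) on log2(RPKM + 1), with empirical Bayes moderation and an intensity trend, over 11625 genes whose mean reached 1 RPKM. The 4 libraries were fitted together with no block, with Benjamini-Hochberg adjustment over all genes and a threshold of 0.05. A change is on the log2(RPKM + 1) scale, which understates that of low genes. An exact permutation test of 2 against 2 libraries cannot pass the threshold, so none was used. The fit was tested on simulated data with equal, independent noise in each library. These data lack the GC trend and the larger difference between knockout libraries seen here, so they do not show how the fit behaves under them. Reads of members were recovered as the smallest whole numbers in the ratio of the values within a tolerance of 0.001 read, times a factor where this met the annotated mean length. Named were all members, Tnfrsf4, and from the 55 further genes those with the largest change and no overlap between groups, up to 3 in each direction. Gmnn, Rrm2b and Tk2 were named besides as partners of members, and E2f2 after its values were seen. Alternatives were other pseudocounts, filters and scalings, a GC correction (lowess, span 0.5, per library), the replicate number as a block, and leaving out each library. Preparation and figures used Python 3.11.15, pandas 2.3.3, numpy 2.4.6 and matplotlib 3.10.9.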

Additional observations from a re-analysis of the deposited data

How the results depend on the processing

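No member passed the limma threshold under any alternative; the lowest adjusted p was 0.0655, without OX40-knockout 2. The median log2 change of the members stayed below 0 throughout. It was -0.03 with the GC correction, with or without the replicate block, and ranged from -0.10 to -0.033 when a library was left out. The number of genes called over the whole table was 1 with quantile normalization, 5 with the replicate block and 0 to 1 when a library was left out. The labels do not say that numbers pair libraries. The deviations of libraries with the same number correlated at 0.47 over 11625 genes, and the replicate block called no member. Genes with an unadjusted p under 0.05 numbered 3832 without OX40-knockout 2 (9 members) and 524 without OX40-knockout 1 (1 member), against 162 with all libraries (0 members); a group's lone library is then assumed to vary like the other group. The fold within the MCM ring became 1.82 and 1.86 in the knockout and 1.82 and 1.98 in the wild-type libraries per principal transcript.

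21 members changed sign somewhere. With median-of-ratios factors Mcm2 was at 0.013, Mcm5 at 0.010 and Rfc4 at 0.0015, and with quantile normalization Lig1 was at -0.0072. With the GC correction, with or without the replicate block, Mcm4 was at 0.068, Orc6 at 0.032, Pcna at 0.034, Prim2 at 0.065, Rfc3 at 0.0057 and Rfc4 at 0.078. Log2 changes with 1 library left out ranged from -0.14 to 0.12 for Mcm2, -0.081 to 0.15 for Mcm3, -0.18 to 0.16 for Mcm5, -0.0010 to 0.056 for Cdc6, -0.10 to 0.41 for Cdt1, -0.25 to 0.037 for Gins3, -0.080 to 0.27 for Orc1, -0.28 to 0.18 for Orc6, -0.24 to 0.046 for Pcna, -0.14 to 0.055 for Tyms, -0.24 to 0.016 for Tk1, -0.15 to 0.025 for Pola2, -0.081 to 0.46 for Pold1, -0.14 to 0.053 for Rpa2, -0.19 to 0.15 for Rfc4, -0.094 to 0.11 for Lig1, -0.044 to 0.22 for Chaf1a and -0.082 to 0.44 for E2f1. The cause was not tested. Fen1, with 24 to 37 reads a library, is the member that depth limits most.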
